A study of Mus musculus with 8 samples.

Results

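The transcription regulator Prdm16, its paralog Mecom (older names Evi1 and Mds1) and 6 genes whose proteins work with PRDM16 (Ehmt1, Ctbp1, Ctbp2, Cebpb, Med1 and Zfp516) were examined in brown adipose tissue of Prdm16 knockout (KO) and wild-type (WT) mice. All probes of the array that carry the name of one of these 8 genes were taken, which gave 13 of the 39429 non-control probes. The tissue was compared on 8 Agilent 2-colour arrays, 4 from 11-month-old mice (genotype Prdm16 KO against WT) and 4 from 6-week-old mice (Prdm16 KO against WT). Each array carried 1 KO and 1 WT sample of 1 age, and KO was in Cy5 on 2 arrays of an age and in Cy3 on the other 2. The labels call the arrays biological replicates, and no pooling is mentioned. Both ages carry the same genotype labels, and the strain, the deleted part of the gene, and the cells and the age in which the deletion took place are not stated in the labels. The series design calls each age a batch of its own, so that age and batch cannot be told apart in any comparison between them.

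PRDM16 is a zinc-finger protein that drives the brown fat gene programme and holds back the muscle and white fat programmes. It does so as a hub: with the transcription factor C/EBP-beta it starts brown fat differentiation, through the Mediator subunit MED1 it contacts the transcription machinery at thermogenic genes, and through the corepressors CtBP1 and CtBP2 and the histone methyltransferase EHMT1 it silences genes of other lineages. MECOM is the closest relative of PRDM16, with the same order of protein domains, and ZFP516 is a cold-induced zinc-finger activator of Ucp1 that binds PRDM16.

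The array reads Prdm16 with a single probe on chromosome 4 (mm9 chr4:153690254-153690313, minus strand), which starts 8525 bases into the transcript, far towards its end. The labels do not say whether this stretch was deleted, and the probe can therefore check the genotype labels only weakly. Mecom had 2 probes, which lie 259 kb apart on chromosome 3. One is annotated to the Mds1 transcript (mm9 chr3:30135491-30135550, minus strand) and one to the Evi1 transcript (mm9 chr3:29876185-29876244, minus strand). The Evi1 probe is shown here because it reads the part of the locus that encodes the zinc-finger protein related to PRDM16 (the array's own sequence, with no letter set apart).
Evi1 probe A_51_P482148: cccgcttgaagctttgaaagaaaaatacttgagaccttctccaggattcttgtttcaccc

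Promoter sequences were taken from RefSeq on build GRCm38.p6, each with 250 bases before the annotated start of the gene and 50 bases from it. The table held windows for 7 of the 8 genes. The windows of Prdm16 and Mecom are printed because the paralogs share an unbroken run of 24 bases there, set in capitals. It lies at bases 10 to 33 of Prdm16 and bases 27 to 50 of Mecom counted from the annotated start. The run ends with the Mecom window, so a match that goes on past this edge would not be seen. Of all 32851 windows in the table, 2 held this run on either strand, those of Prdm16 and Mecom. Other pairs among the 7 genes, taking the first window listed for each gene, shared runs of 6 to 11 bases.
Prdm16 (chr4:154636824-154637123, minus strand): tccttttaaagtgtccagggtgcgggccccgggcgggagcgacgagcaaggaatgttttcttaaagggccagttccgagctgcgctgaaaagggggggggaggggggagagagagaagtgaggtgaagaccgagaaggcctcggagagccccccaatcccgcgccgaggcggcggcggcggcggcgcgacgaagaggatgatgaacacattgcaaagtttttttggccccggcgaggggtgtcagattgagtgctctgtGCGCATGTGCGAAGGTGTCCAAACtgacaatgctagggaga
Mecom (chr3:30509710-30510009, minus strand): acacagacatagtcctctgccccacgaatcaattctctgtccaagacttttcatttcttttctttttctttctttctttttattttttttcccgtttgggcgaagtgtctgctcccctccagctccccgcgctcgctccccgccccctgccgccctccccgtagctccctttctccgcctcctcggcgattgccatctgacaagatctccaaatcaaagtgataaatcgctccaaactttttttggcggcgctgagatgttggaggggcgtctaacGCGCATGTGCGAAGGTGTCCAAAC
The Cebpb window is printed because Cebpb was the only one of these genes whose KO over WT ratio differed between the ages past the test. Capitals mark the letters TGACG, the half-site of the cyclic AMP response element, read on either strand.
Cebpb (chr2:167688665-167688964, plus strand): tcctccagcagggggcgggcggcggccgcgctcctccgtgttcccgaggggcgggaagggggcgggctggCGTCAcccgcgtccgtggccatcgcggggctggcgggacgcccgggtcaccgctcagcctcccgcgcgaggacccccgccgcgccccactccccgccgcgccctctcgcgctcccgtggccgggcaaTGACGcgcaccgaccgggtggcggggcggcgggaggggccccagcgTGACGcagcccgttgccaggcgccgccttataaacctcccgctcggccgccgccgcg
TGACG occurred 3 times in the Cebpb window. It was found at least once in 20.8% of all windows and 3 or more times in 1.03%. These matches are letters in a window and not measured binding sites.

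Per channel, 61.2% to 68.2% of the 43020 non-control spots were well above background, and 0 spots were saturated. Ratios are log2 of KO over WT within an array, and the 26853 probes tested were those well above background in 4 or more of the 16 channels. Fitted ratios and standard errors (SE, n = 4 arrays per age) come from 1 limma model of all 8 arrays with a coefficient for each age and 1 for the dye, and adjusted p-values from limma are over all tested probes, with 0.05 as the threshold. The number of arrays limits their precision. All 5 brown adipocyte markers (Ucp1, Cidea, Cox8b, Elovl3 and Dio2) were well above background in all 16 channels. Skeletal muscle markers stood apart on single arrays: the median log2 ratio of 12 such genes was -0.36, -1.16, -0.28 and 1.72 on the 11-month-old arrays and 0.06, -2.81, 2.94 and -3.44 on the 6-week-old arrays (replicates 1 to 4). Results are therefore also given with 2 sets of 3 arrays left out, both chosen after the data had been seen. The first set was 11-month-old replicate 4 and 6-week-old replicates 2 and 4, which passes over 6-week-old replicate 3 although its shift was larger than that of 11-month-old replicate 4. The second set, added once the results without the first were known, is the 3 arrays with the largest shift, 6-week-old replicates 2, 3 and 4. It leaves 1 array at 6 weeks, which is assumed to vary like the 11-month-old arrays. It drops no 11-month-old array, so the fitted 11-month ratios stay the same under it. A call that holds there does not test the muscle shift at 11 months.

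Of the 13 probes, 12 in 7 genes passed the filter. At 11 months 3 of the 12 changed, all lower in KO tissue, against 33.8% of all probes called in either direction with 16.4% called lower and 17.3% higher. They read Prdm16, Cebpb and Med1. At 6 weeks 1 of the 12 changed, the Prdm16 probe, again lower in KO tissue, against 16.6% of all probes called and 7.05% called lower. The median log2 ratio of the 12 probes was -0.06 at 11 months and -0.12 at 6 weeks, beside 0.01 and 0.00 for all probes tested. Neither count of members was above the share of all probes called in either direction. Both were above the share called lower, but 12 probes are too few to read an excess from. At an unadjusted p under 0.05, 5 of the 12 probes passed at each age. The share of all probes at that level was not counted. It is at least the 33.8% and 16.6% called after adjustment, so no excess of members is read from these counts.

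**Figure D1:**
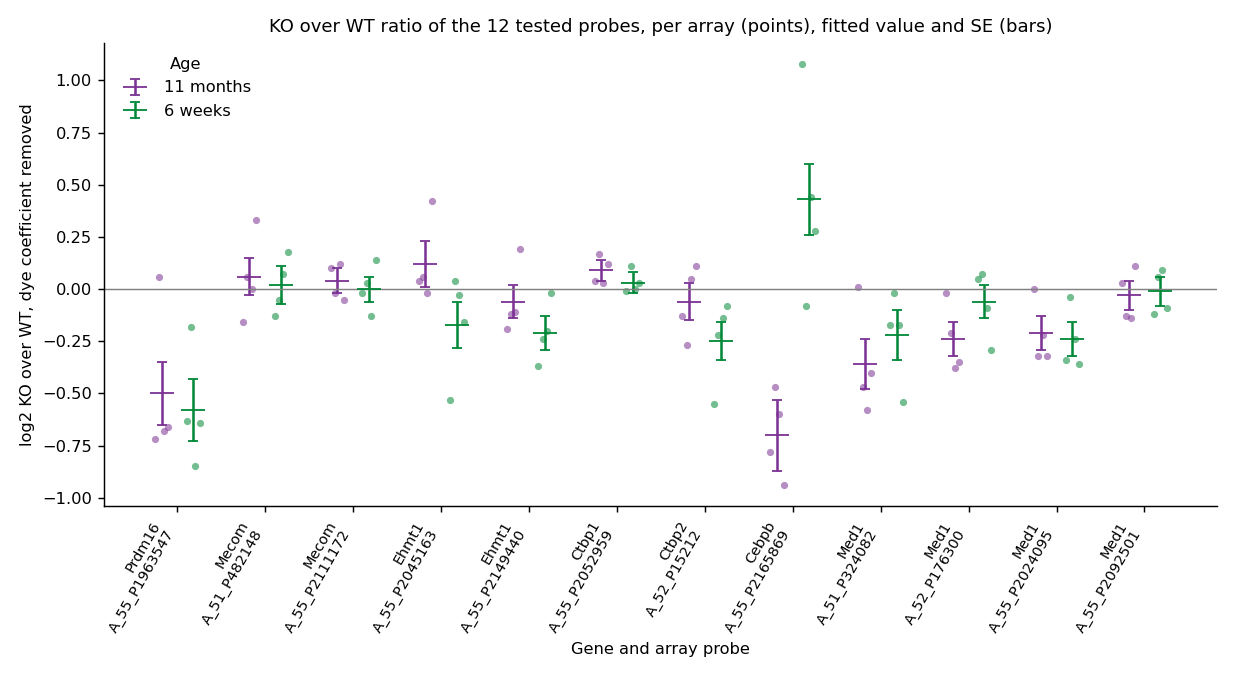
Log2 ratio of KO over WT (y axis) for the 12 tested probes of 7 genes (x axis), with the dye coefficient removed. Points are single arrays, horizontal bars with error bars are the fitted value and its SE (n = 4 arrays per age), 11 months left (purple) and 6 weeks right (green). Prdm16 lies below 0 at both ages (-0.50 and -0.58), Cebpb lies below 0 at 11 months (-0.70) and above it at 6 weeks (0.43), and the fitted values of the Ehmt1 and Ctbp1 probes stay within 0.21 of 0. The Mecom points rest on channels that were in part not well above background.

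Prdm16 RNA was lower in KO tissue at both ages, by 1.42-fold at 11 months and 1.49-fold at 6 weeks. At 11 months the normalized log2 intensity of the Prdm16 probe was 9.49, 9.44, 9.20 and 9.03 in the KO samples, against 10.45, 9.62, 9.64 and 9.45 in the WT samples of the same arrays. At 6 weeks it was 9.45, 9.18, 9.16 and 9.51 in the KO samples, against 9.85, 9.11, 10.25 and 10.39 in the WT samples. As measured, KO was the lower sample on all 4 arrays at 11 months and on 3 of 4 at 6 weeks. Replicate 2 at 6 weeks had nearly equal samples. With the dye removed, the log2 ratio was below 0 on 3 of 4 arrays at 11 months (0.06 on replicate 2). It was below 0 on 4 of 4 at 6 weeks. Across arrays the groups overlapped at both ages, since the WT samples ranged widely and the lowest of them reached the level of KO. The probe stayed well above background in all 8 KO samples, so the RNA that it reads was reduced in this tissue and not lost. In bulk tissue, fewer cells that carry an RNA and less of it per cell cannot be told apart.

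The fitted log2 ratio of Prdm16 was -0.50 ± 0.15 (SE, n = 4) at 11 months, with an adjusted p of 0.0373 (limma), and -0.58 ± 0.15 (SE, n = 4) at 6 weeks, with an adjusted p of 0.0407 (limma). The ratios did not differ between the ages past the test, with a difference of 0.07 (95% interval -0.43 to 0.57, adjusted p = 0.846, limma). In the order of mean level, WT at 6 weeks (9.90 ± 0.57, SD, n = 4) stood above WT at 11 months (9.79 ± 0.45), followed by KO at 6 weeks (9.32 ± 0.18) and KO at 11 months (9.29 ± 0.21). Within each genotype the means of the ages lay closer than their SD, and levels between ages were not tested.

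Both Prdm16 calls stood close to the threshold. The 11-month call was lost with median centring (-0.27, adjusted p = 0.352), with scale normalization between arrays (0.14), with no dye coefficient (0.0771) and without 11-month replicates 1, 3 or 4 (0.156, 0.13 and 0.134) or 6-week replicates 1 or 4 (0.0523 and 0.0556), all limma. At 6 weeks it was lost with 6 of the processing alternatives (adjusted p = 0.0591 to 0.276) and without 6-week replicates 1, 3 or 4 (0.15, 0.145 and 0.115) or 11-month replicates 1 or 3 (0.0554 and 0.0522). Without the first set of 3 arrays the ratio was -0.47 (limma adjusted p = 0.146) at 11 months and -0.74 (0.122) at 6 weeks, so both calls were lost. Without the second set, which drops no 11-month array, it stayed at -0.50 at 11 months. It was -0.46 on the 1 array left at 6 weeks. The ratio was below 0 under every alternative run, from -0.73 to -0.27 at 11 months and from -0.74 to -0.42 at 6 weeks.

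**Figure D2:**
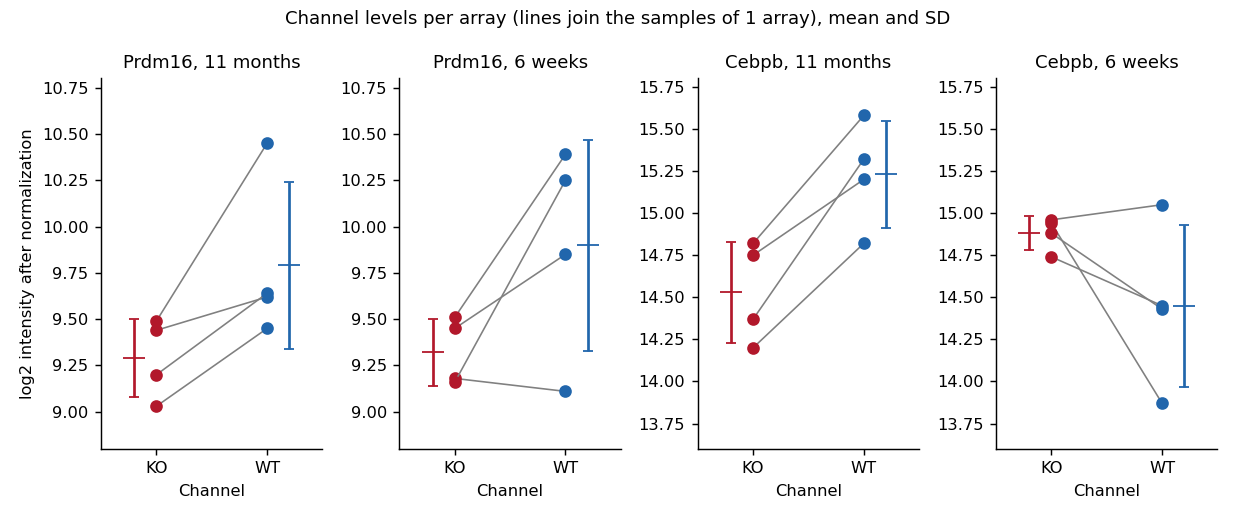
Normalized log2 intensity (y axis) of the Prdm16 probe (left pair of panels) and the Cebpb probe (right pair) in KO (red) and WT (blue) channels, at 11 months and 6 weeks. Grey lines join the samples of 1 array, and the bars beside the points are the mean and SD (n = 4). All 4 lines climb towards WT for Cebpb at 11 months, whereas 3 of 4 fall towards WT at 6 weeks. The y axes do not start at 0, and the levels of the 2 probes are not comparable.

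Mecom, the paralog, lay close to background at both of its probes, so that these arrays can say little about it. The Evi1 probe was well above background in 4 of 16 channels, at 11 months in 2 of 4 KO and 1 of 4 WT channels and at 6 weeks in 1 of 4 KO and 0 of 4 WT channels. Its log2 intensities at 11 months were 6.81, 6.99, 7.02 and 7.11 in KO, against 6.97, 6.93, 7.01 and 6.78 in WT, and since most of these channels were not well above background, no ratio is read from them. At 6 weeks it read 6.85, 6.91, 6.98 and 7.04 in KO, against 6.98, 6.97, 6.91 and 6.86 in WT, where all 4 WT channels were not well above background and carry only a bound, so no fold is given. KO and WT overlapped, and the whole span of values was small.

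The Mds1 probe was well above background in 4 of 4 KO and 1 of 4 WT channels at 11 months and in all 8 channels at 6 weeks. Its log2 intensities at 11 months were 7.12, 6.97, 7.20 and 6.97 in KO samples and 6.89, 6.86, 7.21 and 7.15 in WT samples. At 6 weeks they were 7.12, 7.04, 7.20 and 7.29 in KO samples and 7.26, 7.14, 7.20 and 7.02 in WT samples. KO and WT overlapped at both ages. The fitted ratio at 6 weeks was 0.00 (95% interval -0.14 to 0.15, limma adjusted p = 0.966). At 11 months it was 0.04 (limma adjusted p = 0.696), against WT samples of which only 1 of 4 was measured well above background, so its size is not read as a fold. With the scanner software's own log ratio the 11-month value moved to 0.83 (adjusted p = 0.0437, limma), a value that rests on signal near background.

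Ehmt1, which encodes the histone methyltransferase that PRDM16 recruits, did not pass the test at either age. Its probes lie 0.37 kb apart near the end of the transcript on chromosome 2. Probe A_55_P2149440 read 10.78, 10.76, 10.79 and 10.93 in KO at 11 months, against 10.90, 10.81, 10.97 and 10.82 in WT. At 6 weeks it read 10.91, 10.68, 10.71 and 10.89 in KO, against 11.35, 11.00, 10.84 and 10.84 in WT. As measured, KO was lower on 3 of 4 arrays at each age by small amounts, and the groups overlapped. With the dye removed it was lower on 3 of 4 arrays at 11 months and on 4 of 4 at 6 weeks. The fitted ratios were -0.06 (95% interval -0.25 to 0.13, limma adjusted p = 0.622) at 11 months and -0.21 (-0.40 to -0.02, limma adjusted p = 0.124) at 6 weeks.

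The brighter Ehmt1 probe, A_55_P2045163, followed the dye. It read 13.46 to 14.12 in KO and 13.55 to 14.09 in WT at 11 months, and 13.24 to 14.53 in KO and 13.96 to 14.88 in WT at 6 weeks, so that the groups overlapped. Its log2 ratios as measured were 0.43, 0.45, -0.42 and 0.03 at 11 months and -0.93, -0.35, 0.37 and 0.23 at 6 weeks. Its dye coefficient was 0.39 ± 0.08 (SE over 8 arrays, limma adjusted p = 0.0374), and it was the only one of the 12 probes past the test for dye, against 4.43% of all probes. With the dye removed the fitted ratios were 0.12 ± 0.11 (SE, n = 4) at 11 months and -0.17 ± 0.11 at 6 weeks, with limma adjusted p-values of 0.437 and 0.328. A KO over WT value of this probe from arrays of a single dye orientation would carry that dye coefficient.

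The corepressor genes Ctbp1 and Ctbp2, whose proteins bind a short motif in PRDM16 and repress white fat genes with it, kept levels in KO tissue that did not differ from WT past the test. For Ctbp1 the log2 intensities were 14.35, 14.27, 14.31 and 14.31 in KO at 11 months, against 14.22, 14.01, 14.37 and 14.28 in WT. At 6 weeks they were 14.22, 14.51, 14.34 and 14.31 in KO, against 14.33, 14.49, 14.25 and 14.19 in WT. The samples of each array were close to each other, and KO and WT overlapped at both ages. The fitted ratio of Ctbp1 was 0.09 (95% interval -0.03 to 0.21, limma adjusted p = 0.222) at 11 months and 0.03 (-0.09 to 0.15, limma adjusted p = 0.72) at 6 weeks, which are the narrowest intervals among the members.

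For Ctbp2 the log2 intensities were 10.85, 10.89, 10.71 and 10.85 in KO at 11 months, against 10.77, 10.95, 10.86 and 10.95 in WT. At 6 weeks they were 10.74, 10.91, 11.02 and 11.10 in KO, against 11.49, 11.34, 10.96 and 10.98 in WT. As measured, the 6-week gap came from replicates 1 and 2, which share a dye orientation. Replicates 3 and 4 of the other orientation had nearly equal samples. With the dye removed the 6-week log2 ratios were -0.55, -0.22, -0.14 and -0.08. The fitted ratio was -0.06 ± 0.09 (SE, n = 4, limma adjusted p = 0.667) at 11 months. At 6 weeks it was -0.25 ± 0.09 (SE, n = 4, limma adjusted p = 0.109), with a 95% interval of -0.47 to -0.03. The 6-week value passed the test under 1 alternative, a dye coefficient for each age (adjusted p = 0.0365, limma).

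Cebpb, the gene of the C/EBP-beta factor that pairs with PRDM16 at the start of brown fat differentiation, was lower in KO tissue at 11 months by 1.62-fold. Its log2 intensities at 11 months were 14.82, 14.75, 14.20 and 14.37 in KO samples, against 15.58, 15.20, 14.82 and 15.32 in WT samples. At 6 weeks they were 14.94, 14.96, 14.88 and 14.74 in KO samples, against 13.87, 15.05, 14.43 and 14.45 in WT samples. At 11 months KO was the lower sample on all 4 arrays, although the 2 groups just met across arrays. At 6 weeks KO was the higher sample on 3 of 4 arrays, and the WT sample of replicate 1 was the lowest of all 16. The probe lies on chromosome 2 (mm9 chr2:167515828-167515887, plus strand).

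The fitted log2 ratio of Cebpb was -0.70 ± 0.17 (SE, n = 4, limma adjusted p = 0.0155) at 11 months and 0.43 ± 0.17 (SE, n = 4, limma adjusted p = 0.121) at 6 weeks. The 11-month ratio minus the 6-week ratio was -1.13 ± 0.24 (SE, adjusted p = 0.0188, limma), and Cebpb was the 1 probe of 12 called in this comparison, against 17.6% of all probes (9.7% lower and 7.87% higher). With the dye removed the 11-month ratios ran from -0.94 to -0.47 and the 6-week ratios from -0.08 to 1.08. They did not overlap, as in 28.3% of all probes. The other 11 member probes overlapped between the ages.

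The 11-month call of Cebpb was lost with median centring (-0.53, adjusted p = 0.207), with scale normalization (-0.88, 0.0928) and without 11-month replicate 1 or 4 (-0.67, 0.0689 and -0.60, 0.0696), all limma. The difference between ages lost its call with the same normalizations (-1.21, adjusted p = 0.154 and -1.29, 0.181) and without 11-month replicate 1 (-1.10, 0.0519). Both calls held without the first set of 3 arrays set apart by muscle markers. The values were -0.57 (adjusted p = 0.0369, limma) for 11 months and -1.33 (adjusted p = 0.0474, limma) for the difference. That set holds 11-month replicate 4, and without this replicate alone the 11-month call was lost. Without the second set, which drops no 11-month array, the 11-month ratio stayed at -0.70. The difference was then -1.86, with a ratio of 1.16 on the 1 array left at 6 weeks.

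Med1, the Mediator subunit that PRDM16 contacts, was read by 4 probes on chromosome 11 that disagreed in size. Probe A_51_P324082 was lower in KO tissue at 11 months by 1.29-fold. Its log2 intensities there were 10.88, 10.78, 10.83 and 11.01 in KO, against 11.00, 11.38, 11.28 and 11.28 in WT, and at 6 weeks 11.27, 11.52, 11.25 and 10.89 in KO, against 11.30, 11.41, 11.55 and 11.56 in WT. As measured, KO was the lower sample at 11 months on all 4 arrays, by little on replicate 1, and at 6 weeks on 3 of 4. With the dye removed, the log2 ratio was below 0 on 3 of 4 arrays at 11 months (0.01 on replicate 1). It was below 0 on 4 of 4 at 6 weeks. The fitted ratios were -0.36 ± 0.12 (SE, n = 4, limma adjusted p = 0.044) at 11 months and -0.22 ± 0.12 (SE, n = 4, limma adjusted p = 0.219) at 6 weeks.

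The other Med1 probes did not pass the test at either age in the chosen fit. At 11 months A_52_P176300 passed in 9 of 22 alternatives (adjusted p = 0.0168 to 0.048 in those) and A_55_P2024095 in 4 of 22 (0.0116 to 0.0362), all limma, and at 6 weeks neither passed in any. Probe A_52_P176300 read 9.48, 9.40, 9.56 and 9.51 in KO at 11 months, against 9.49, 9.60, 9.96 and 9.87 in WT, with a fitted ratio of -0.24 ± 0.08 (SE, n = 4, limma adjusted p = 0.0625) there and of -0.06 ± 0.08 (0.645) at 6 weeks. Probe A_55_P2024095 read 7.82, 7.82, 7.95 and 7.82 in KO at 11 months, against 7.97, 8.28, 8.02 and 7.99 in WT, with fitted ratios of -0.21 ± 0.08 (limma adjusted p = 0.0745) at 11 months and -0.24 ± 0.08 (0.0718) at 6 weeks. At 6 weeks A_52_P176300 read 9.57 to 9.76 in KO and 9.64 to 9.84 in WT, and A_55_P2024095 read 7.96 to 8.24 in KO and 8.13 to 8.46 in WT. As measured, KO was the lower sample on all 4 arrays at 11 months on both probes, barely so on replicate 1 of A_52_P176300 (-0.01). The groups of A_52_P176300 overlapped at both ages, and those of A_55_P2024095 at 6 weeks only. With the dye removed, A_55_P2024095 was below 0 on 3 of 4 arrays at 11 months (0.00 on replicate 1).
Probe A_55_P2092501, the brightest, read 11.57, 11.73, 11.75 and 11.88 in KO at 11 months, against 11.56, 11.87, 11.87 and 11.75 in WT. At 6 weeks it read 11.73 to 11.89 in KO and 11.75 to 11.92 in WT, and KO and WT overlapped at both ages. Its fitted ratios were -0.03 (95% interval -0.19 to 0.12) at 11 months and -0.01 (-0.17 to 0.14) at 6 weeks. The 4 probes are annotated to 3 different transcripts on the array, and A_52_P176300 and A_55_P2092501 share one. The mean of the 4 probes was -0.21 ± 0.08 (SE, n = 4, limma adjusted p = 0.0693) at 11 months and -0.14 ± 0.08 (0.263) at 6 weeks, so Med1 as a gene did not pass. The call of A_51_P324082 was lost with median centring (-0.13, adjusted p = 0.657), scale normalization (-0.55, 0.161), no dye coefficient (0.0658), no filter on dim probes (0.0541) and the replicate number as a block (0.0522), all limma. It was lost without any one of 6-week replicates 1, 2 and 3 (adjusted p = 0.0596, 0.0501 and 0.0652) or 11-month replicates 2, 3 and 4 (0.164, 0.165 and 0.126), all limma. It was also lost without the first set of 3 arrays set apart by muscle markers (-0.38, limma adjusted p = 0.0972). The second set drops no 11-month array, and without it the ratio stayed at -0.36 and that of A_52_P176300 at -0.24.

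Zfp516 could not be measured. Its single probe, on chromosome 18, was well above background in 0 of the 16 channels and was not tested. Its log2 intensities were 6.84, 6.81, 6.44 and 6.51 in KO and 6.72, 6.75, 6.42 and 6.48 in WT at 11 months. At 6 weeks they were 6.71, 6.69, 6.84 and 6.74 in KO and 6.80, 6.91, 6.69 and 6.75 in WT. Nothing can be read from these values on whether Zfp516 differed between KO and WT tissue.

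The families around these genes were described from lists, with 1 probe standing for each gene. Over all 21742 genes 17.9% were called higher and 16.8% lower in KO tissue at 11 months, and 9.18% higher and 7.01% lower at 6 weeks, with medians of 0.01 and 0.00. For the difference between ages 8.46% were called higher and 9.71% lower. The direction of the changes named below was the same under median centring, scale normalization, no background subtraction and the scanner software's log ratio. Of 8 measured genes of the PRDM family, which share the PR domain, 0 changed at either age in limma. Prdm9 had a log2 ratio of 0.19 at 11 months and -0.21 at 6 weeks. The family medians were 0.08 and 0.06. With median centring 1 gene of the family rose at 11 months, and with the scanner software's log ratio 1 rose at 6 weeks (limma).

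In the C/EBP family, whose members act in sequence during fat cell differentiation, 2 of 5 measured genes rose and 1 fell at 11 months, and 0 changed at 6 weeks. Cebpa and Cebpd rose at 11 months, by 0.89 ± 0.10 (SE, limma adjusted p = 0.000483) and 0.92 ± 0.21 (0.0125) on the log2 scale, against the fall of Cebpb. Ddit3, which encodes a stress-induced family member, fell by 0.70 ± 0.09 (limma adjusted p = 0.000687). The differences between ages passed the test for Cebpa (1.14, limma adjusted p = 0.00301) and Ddit3 (-0.62, 0.0133) and did not for Cebpd (0.56, 0.24). C/EBP genes thus moved in both directions at 11 months. With scale normalization all 3 calls at 11 months were lost (limma adjusted p = 0.118 for Cebpa, 0.104 for Cebpd and 0.0755 for Ddit3), as was the difference for Cebpa (0.297). The 11-month call of Ddit3 was also lost with median centring (-0.46, adjusted p = 0.0568, limma). Its difference between ages was lost with median centring (limma adjusted p = 0.174), scale normalization (0.276) and without the first and the second set of 3 arrays (0.0793 and 0.0557).

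Of 31 measured subunits of Mediator and its kinase module other than Med1, 5 rose and 9 fell at 11 months, and 2 rose and 5 fell at 6 weeks, with medians of 0.01 at both ages. Med12, of the kinase module, was lower in KO tissue at both ages, at -0.53 ± 0.10 (SE, n = 4, limma adjusted p = 0.00599) at 11 months and -0.42 ± 0.10 (0.033) at 6 weeks. Med10, of the middle module, was at -0.52 (limma adjusted p = 0.0116) and Cdk8, the kinase itself, at -0.51 (0.00151) at 11 months. The changes in Mediator genes at 11 months were within 0.53 of 0 on the log2 scale. With median centring 3 subunits rose and 0 fell at 11 months and 0 changed at 6 weeks (limma), so the lower calls depend on the centring. With scale normalization 0 changed at 11 months and 1 rose at 6 weeks. The 6-week call of Med12 was also lost without the first and the second set of 3 arrays (limma adjusted p = 0.114 and 0.0817).

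Of 19 genes of the CtBP corepressor complex and of histone methylation linked to EHMT1, 4 rose and 2 fell at 11 months, and 1 rose and 2 fell at 6 weeks, with medians of 0.07 and -0.08. Zeb2, a DNA-binding repressor that brings CtBP to its targets, rose at both ages, by 0.97 ± 0.12 (SE, n = 4, limma adjusted p = 0.000829) at 11 months and 0.55 ± 0.12 (0.025) at 6 weeks. Rcor3, a corepressor of the CoREST family, was at -0.63 (limma adjusted p = 0.00429) at 11 months, and its relative Rcor2 at -0.36 (0.138) at 11 months and -0.87 (0.0162) at 6 weeks. With median centring 5 genes of the list rose and 0 fell at 11 months, and with scale normalization 1 rose and 0 fell. The 11-month call of Zeb2 was lost with scale normalization (limma adjusted p = 0.108). Its 6-week call held with median centring (0.0175) and was lost in the other 5 settings run for the lists. These were scale normalization (limma adjusted p = 0.608), the scanner software's log ratio (0.0744), no background subtraction (0.051) and leaving out the first (0.149) or the second set of 3 arrays (0.07, 0.791). The calls of Rcor3 at 11 months and Rcor2 at 6 weeks were lost with median centring (0.0921 and 0.0995) and scale normalization (0.0953 and 0.151), all limma. That of Rcor2 was also lost without the first (0.0764) or the second set of arrays (limma adjusted p = 0.281).

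Among 18 other described partners and regulators of PRDM16, 4 rose and 5 fell at 11 months, and 1 rose and 1 fell at 6 weeks. Ppargc1b, a coactivator that docks on PRDM16, was at -1.76 ± 0.14 (SE, n = 4, limma adjusted p = 0.000121) at 11 months and -0.83 ± 0.14 (0.0109) at 6 weeks, and its relative Ppargc1a at -1.44 ± 0.16 (0.000478) and -0.20 ± 0.16 (0.432). Ppara, the nuclear receptor of fatty acid oxidation, was at -2.09 ± 0.44 (limma adjusted p = 0.00863) at 11 months and -1.20 ± 0.44 (0.105) at 6 weeks. The difference between ages passed the test for Ppargc1a (-1.24, limma adjusted p = 0.0114) and Ppargc1b (-0.93, 0.0202) and did not for Ppara (-0.89, 0.358). With scale normalization 2 genes of the list rose and 0 fell at 11 months, and 0 changed at 6 weeks (limma). The 6-week call of Ppargc1b was lost with median centring (limma adjusted p = 0.0875), scale normalization (0.668), no background subtraction (0.0553), the scanner software's log ratio (0.088) and without the second set of 3 arrays (0.055). The difference between ages was lost with median centring, scale normalization and without either set of 3 arrays, for Ppargc1a (limma adjusted p = 0.101 to 0.336) and for Ppargc1b (0.056 to 0.437).

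Of 8 brown fat genes described as activated by PRDM16, among them Ppargc1a and Ppara of the list above, 8 fell at 11 months (median log2 ratio -2.57) and 0 changed at 6 weeks in limma (median -0.48). Ucp1, the uncoupling protein of heat production, was at -4.05 ± 0.44 (SE, n = 4, limma adjusted p = 0.000419) at 11 months and 0.13 ± 0.44 (0.864) at 6 weeks. Elovl3, a fatty acid elongase of brown fat, was at -3.19 and 0.85, and Cox7a1, a respiratory chain subunit, at -3.29 and -0.76. The difference between ages passed the test for 6 of the 8 genes. Without the first set of 3 arrays set apart by muscle markers 8 fell at 11 months and 3 at 6 weeks, while the difference passed for 3 of the 8 genes. Without the second set, which drops no 11-month array, the median stayed at -2.57 at 11 months. It was -0.23 on the 1 array left at 6 weeks. The difference passed for 3 genes with median centring. With scale normalization, which widened these ratios (median -3.79 at 11 months), 0 were called at either age or in the difference.

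Of 5 white fat genes described as repressed through PRDM16 or CtBP, 4 rose at 11 months and 4 at 6 weeks, with medians of 3.02 and 2.09. With scale normalization 0 were called at either age (limma), at medians of 4.02 and 2.06. Retn, which encodes the adipokine resistin, was at 3.92 ± 0.12 (SE, n = 4, limma adjusted p = 8e-06) at 11 months and 2.40 ± 0.12 (0.000288) at 6 weeks. Psat1, an enzyme of serine synthesis, was at 3.91 ± 0.15 (1e-05) and 2.06 ± 0.15 (0.000754). Rarres2, which encodes the adipokine chemerin, was at 3.02 ± 0.16 (limma adjusted p = 2.4e-05) at 11 months and 0.29 ± 0.16 (0.243) at 6 weeks. Of 3 measured muscle regulators (among them Myod1 at 0.13 and -0.01 and Myf6 at 0.23 and -0.49), 0 changed at either age in limma.

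**Figure D3:**
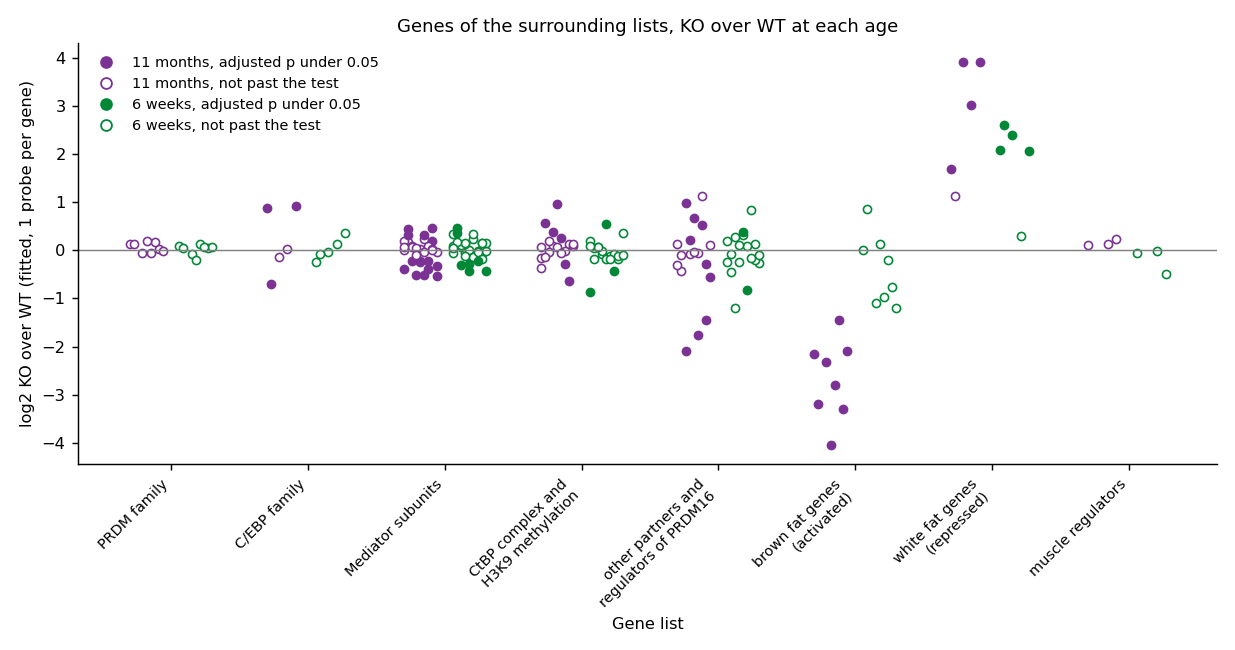
Fitted log2 ratio of KO over WT (y axis) for the measured genes of 8 lists (x axis), 11 months left (purple) and 6 weeks right (green). Filled circles passed the limma test at an adjusted p under 0.05 and open circles did not. Brown fat genes reach -4.05 at 11 months and white fat genes 3.92, while the PRDM, C/EBP, Mediator and CtBP lists stay within 0.97 of 0.

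The values of other cell types are given beside these results. At 11 months all 5 brown adipocyte markers fell, 5 of 5 fibroblast markers and 3 of 5 macrophage markers rose, and all 5 general adipocyte markers rose, as they did at 6 weeks. At 6 weeks 0 of the brown adipocyte, fibroblast and macrophage markers changed in limma, and 2 of 5 endothelial markers fell. Of 5 Schwann cell markers 1 fell at 11 months, and 0 of the measured lymphocyte and erythrocyte markers changed at either age in limma. The summed log2 signal of the fibroblast markers was 16.22 to 17.71 in KO and 15.28 to 15.71 in WT samples at 11 months, so that every KO sample lay above every WT sample. The same held for the general adipocyte markers, at 19.68 to 20.25 in KO and 17.81 to 18.91 in WT samples at 11 months and 19.29 to 19.47 in KO and 17.89 to 19.14 in WT samples at 6 weeks. Every KO sample lay below every WT sample at 11 months for the brown adipocyte (15.76 to 18.22 in KO, 19.93 to 20.26 in WT), Schwann cell (12.40 to 14.05 in KO, 14.21 to 15.22 in WT) and lymphocyte markers (12.32 to 12.43 in KO, 12.49 to 12.65 in WT). At 6 weeks this was so for the endothelial markers, at 13.57 to 13.66 in KO and 13.73 to 13.98 in WT samples. The sums weigh bright genes most. At 11 months the median log2 ratio of the Schwann cell list was -0.04, 0.02, -0.09 and -0.06, so its sum does not stand for the whole list. That of the lymphocyte list was -0.22, -0.06, -0.02 and -0.08. Only 3 of its 5 measured markers were well above background in every KO channel, and 3 in every WT channel. The summed log2 signal of the 12 skeletal muscle markers was 16.46 to 19.52 in KO and 16.64 to 19.15 in WT samples at 11 months, and 12.30 to 14.69 in KO and 11.46 to 17.46 in WT samples at 6 weeks. Of these 12 markers, 0 changed at either age in limma, since the shifts pointed both ways. Their part in the values of Prdm16, Cebpb and Med1 was not tested beyond fits that left arrays out. The second set of 3 arrays drops no 11-month array. At 11 months the fits without the first set and without 11-month replicate 4 alone bear on this part. Without that replicate 0 member probes were called at 11 months. The limma adjusted p was 0.134 for Prdm16, 0.0696 for Cebpb and 0.126 for Med1 probe A_51_P324082.

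**Figure D4:**
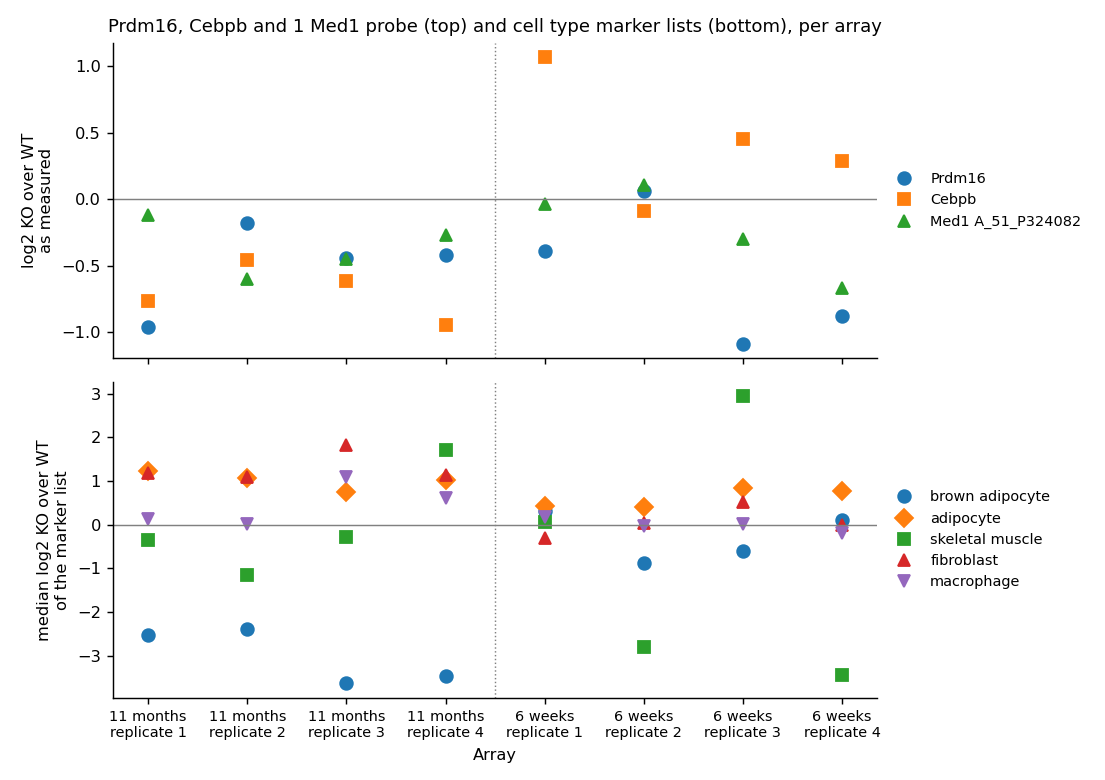
Log2 ratio of KO over WT as measured on each array (x axis, 11 months left of the dotted line, 6 weeks right) for Prdm16, Cebpb and Med1 probe A_51_P324082 (top) and the median over each marker list (bottom). The skeletal muscle list runs from -3.44 to 2.94 over the 6-week arrays, and the brown adipocyte list lies between -3.63 and -2.38 on the 11-month arrays.

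The genes whose dye-removed ratio followed that of Prdm16 most closely over the 8 arrays, among 9624 genes that varied enough to be compared, were Cstf3 (Pearson r = 0.962), Rprl2 (0.913), Clec2d (0.895), Inpp1 (0.895) and Kitl (0.894). For the Mds1 probe of Mecom, whose 11-month ratios rest on WT channels mostly not well above background, among 14689 genes, they were Sult2b1 (0.966), Sox14 (0.938), Bcap31 (0.912), Nrg2 (0.909) and Ostf1 (0.907). These are descriptions over 8 ratios that share arrays and the estimated dye coefficient, picked as the highest of all genes compared. None of the 10 genes is one of the cofactors. Zfp516 was not tested, and cofactors whose ratio varied too little were left out of the comparison with Prdm16. This absence is therefore not read as a result.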

How the data were processed

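The deposited scanner tables hold, per the file headers, the mean foreground and median local background intensity of each spot in Cy5 and Cy3, read by Agilent Feature Extraction 10.10.1.1 (11 months) and 10.5.1.1 (6 weeks), with each age on its own slide and probe coordinates on mm9. A log10 ratio of Cy5 to Cy3 that the scanner software computed is also in these deposited files. The values that the authors deposited for the series are log2 ratios. The submitters' processing notes name limma without the steps. Set against the scanner values, these log2 ratios followed the dye of the KO sample (r = 0.89 to 0.991), so they were read as KO over WT and served as an alternative.

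Intensities were corrected with normexp (offset 50) and normalized by loess within arrays in limma 3.58.1 (R 4.3.3, package data.table at version 1.17.8), leaving out 131 to 247 outlier spots per array. Ratios were turned to KO over WT by the labelled dyes. The model of all 8 arrays left 5 residual degrees of freedom, and p-values were adjusted by Benjamini-Hochberg over 26853 probes. No tested member probe lost a spot. Levels are log2 intensities after loess and Aquantile scaling. For gene lists the brightest kept probe stood for a gene. The p-values set each fitted ratio against the spread between these arrays, with 1 estimate of it shared by both ages. The fit, which has no replicate block, was tested on simulated 11-month changes. It recovered 52.2% of 67 changes of 0.5 and 92.5% of 67 changes of 1 on the log2 scale. Few of the 26741 simulated probes were changed, unlike in the data, so these shares need not hold for the real arrays. Figures were drawn with matplotlib 3.10.9.

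The members, gene lists, markers, tests and alternatives were chosen with earlier results of these data known. Genes are named by rule: every probe of the 8 members, up to 3 called genes of each list with the largest change (otherwise 2), and the 5 genes most like Prdm16 and Mecom. Other genes and values given in passing were chosen after they were seen. One gene that this rule selects is not reported here.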

Additional observations from a re-analysis of the deposited data

Results flagged for a closer look

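One result stood out because the groups differed under the same contrast. The KO over WT ratio of Cebpb was lower at 11 months than at 6 weeks by a log2 difference of -1.13 (limma adjusted p = 0.0188), tested as the contrast of the age coefficients in 1 model. KO was the lower sample on 4 of 4 arrays at 11 months and on 1 of 4 at 6 weeks. Age and batch cannot be told apart in this difference. Of 24 groups of 4 arrays examined, 2 ages for each of the 12 tested probes, 0 had an array far from the other 3 by Dixon's criterion.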

How the results depend on the processing

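No called member ratio changed sign under any alternative run, and 60 values without a call on either side did. Counts of called probes are given for 11 months, the difference and 6 weeks in turn, beside 9067, 4717 and 4459 in the chosen fit and 3, 1 and 1 member probes. Median centring gave 5922, 602 and 1244 probes and 0 members in each. It moved the share of calls that were KO higher to 70.6%, 59.0% and 70.5%, beside 51.4%, 44.8% and 57.6%, and the median of all probes to 0.08 at 11 months and 0.07 at 6 weeks. Scale normalization between arrays gave 1534, 3 and 1151 probes and 0 members in each, with 33.3% of calls KO higher in the difference. The scanner software's log ratio called 11712 of 26853 probes with 6 members at 11 months and, at 6 weeks, 2838 probes with 0 members. No background subtraction and the authors' deposited log2 ratios each called 5 members at 11 months, among 11061 and 11094 probes. At 6 weeks each called 0 members, among 4277 and 4270 probes. No dye coefficient gave 3002 probes in the difference. It called 7452 probes with 1 member at 11 months and 3142 with 0 members at 6 weeks. A dye coefficient per age called 6245 probes with 2 members at 6 weeks. Leaving out 1 array gave 5924 to 9214 probes and 0 to 3 members at 11 months, 2444 to 3834 probes and 0 to 1 members in the difference, and 1481 to 5393 probes and 0 to 1 members at 6 weeks. The lowest counts were without 11-month replicate 2 (5924 and 2444) and without 6-week replicate 1 (1481). Without the first set of 3 arrays (11-month replicate 4, 6-week replicates 2 and 4), chosen after seeing the data, 5733, 756 and 960 probes and 1, 1 and 0 members were called, from fewer samples. Without the 3 arrays with the largest muscle marker shift (6-week replicates 2, 3 and 4), a set added after those results were known, 8522, 729 and 1528 probes and 4, 1 and 1 members were called, with 1 array left at 6 weeks. In other cases the cause was not tested.

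Deviations of same-numbered arrays correlated at -0.187 to -0.051 over probes as measured. Same-numbered arrays carried KO in a different dye at each age, so these values cannot show whether replicate numbers pair the ages. Taken within a dye orientation, the correlations ran from -0.06 to 0.09, and no pairing was read from them. The replicate number as a block gave 9418, 5138 and 5309 probes and 3, 1 and 1 members. Of the Med1 probes at 11 months, A_51_P324082 lost its call under it (limma adjusted p = 0.0522) and A_52_P176300 gained one (0.0396). Signal over background limits Mecom and Zfp516. A filter requiring all 16 channels removed both Mecom probes.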
